A study of Mus musculus with 48 samples.

Results

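The receptors through which sex steroids, glucocorticoids, mineralocorticoids, thyroid hormone and prolactin reach the liver were followed in mice of the FCG model. The 6 genes Esr1, Prlr, Nr3c1, Nr3c2, Pgrmc1 and Thrb were taken by symbol from the deposited liver count table, out of 55414 genes listed by Ensembl identifier, and all 6 were among the 15414 genes that passed the filter on low counts. They were named by symbol and not by a cutoff on any value. In FCG mice the testis-determining gene Sry is deleted from the Y chromosome and carried as a transgene on an autosome, so that gonad type and sex chromosomes are inherited apart. The genotypes were XX and XY- with ovaries (Ov), and XX;SryTg and XY-;SryTg with testes (Te), and are written XX Ov, XY Ov, XX Te and XY Te below. Each was kept intact or gonadectomized (GDX) at 75 days of age, giving 8 groups of 6 mice with 1 liver library each. All mice were of a C57BL/6 background and received a high-fat diet (HFD) with 60% of its calories from fat, started at 15 to 17 weeks of age, so no chow-fed liver enters any comparison. The labels give 11 weeks of HFD for intact and 15 weeks for GDX mice, and the study's methods give other durations. With the same age at the start, the GDX mice were by these labels also older at the end of the diet. Gonadal status, weeks of HFD, age and cohort therefore cannot be told apart wherever GDX mice are set against intact mice.

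ERα, encoded by Esr1, is the main oestrogen receptor of hepatocytes and acts as a ligand-bound transcription factor, as do the glucocorticoid receptor (Nr3c1), the mineralocorticoid receptor (Nr3c2) and the thyroid hormone receptor β (Thrb). The prolactin receptor (Prlr) is a cytokine receptor at the cell surface that signals through JAK2 and STAT5 and is long known as a transcript more abundant in livers of female rodents. Pgrmc1 encodes a haem-binding membrane protein that partners cytochrome P450 enzymes, and it is not a member of the nuclear receptor family.

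Reads counted on genes numbered 13071874 to 20045141 per liver. Xist was at 166 to 1203 CPM in XX and 0.437 to 7.50 CPM in XY livers, and each of 4 Y-linked genes was at most 4.26 CPM in XX and at least 14.9 CPM in XY livers, so the chromosome labels held in all 48. Reads aligned outside genes made up 3.47% to 6.20% of the intact and 8.52% to 11.3% of the GDX libraries, and the 2 ranges did not overlap. A pair of intact libraries stood apart, XX Ov Intact mouse 6 with the lowest scaling factor (0.742) and XY Te Intact mouse 2 with 42.3% of its reads not on genes. Of 6 hepatocyte markers, albumin was at 47891 CPM or more and transferrin (Trf in the table) at 7803 CPM or more in every liver, and Apoa1, Cps1, Serpina1c and Ahsg were detected in all 48. In the comparison of intact livers with ovaries and with testes, which called 25.3% of all genes, the calls among markers of other liver cells were 1 lower of 5 tested for cholangiocytes, 1 higher of 6 for sinusoidal endothelium, 1 higher of 6 for stellate cells, 4 higher of 6 for Kupffer cells and macrophages (median 0.58) and 2 higher of 5 for neutrophils and lymphocytes (median 1.01), beside 1 higher and 1 lower of the 6 hepatocyte markers. In bulk tissue, fewer cells of a type and less RNA per cell cannot be told apart in any value that follows.

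For Esr1 and Prlr, the members that differed most between intact mice with ovaries and with testes, the 250 bases before annotated starts are printed here (RefSeq, GRCm38.p6, plus strand, 5′ to 3′). The library build is GRCm39, so these coordinates are not those of the counts. Windows were read for all members but Nr3c1, and 5 motifs were searched on both strands. Capitals mark a STAT palindrome (TTCNNNGAA) or a CCAAT box (CCAAT).

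Esr1 start 1, chr10:4611739-4611988: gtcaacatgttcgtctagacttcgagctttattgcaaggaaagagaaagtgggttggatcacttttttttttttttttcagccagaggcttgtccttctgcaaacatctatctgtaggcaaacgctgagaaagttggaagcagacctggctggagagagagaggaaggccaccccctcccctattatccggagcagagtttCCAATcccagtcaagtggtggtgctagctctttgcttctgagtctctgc
Esr1 start 2, chr10:4709908-4710157: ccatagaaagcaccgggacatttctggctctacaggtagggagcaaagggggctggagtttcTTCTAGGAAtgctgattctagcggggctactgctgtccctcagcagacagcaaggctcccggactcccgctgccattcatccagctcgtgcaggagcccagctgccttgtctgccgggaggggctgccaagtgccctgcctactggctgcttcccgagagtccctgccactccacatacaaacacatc
Prlr start 1, chr15:10176988-10177237: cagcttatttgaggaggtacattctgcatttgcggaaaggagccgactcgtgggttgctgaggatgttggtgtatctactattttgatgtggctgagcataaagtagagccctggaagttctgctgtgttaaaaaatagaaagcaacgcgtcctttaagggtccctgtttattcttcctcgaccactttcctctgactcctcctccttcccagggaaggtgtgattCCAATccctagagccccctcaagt
Prlr start 2, chr15:10223656-10223905: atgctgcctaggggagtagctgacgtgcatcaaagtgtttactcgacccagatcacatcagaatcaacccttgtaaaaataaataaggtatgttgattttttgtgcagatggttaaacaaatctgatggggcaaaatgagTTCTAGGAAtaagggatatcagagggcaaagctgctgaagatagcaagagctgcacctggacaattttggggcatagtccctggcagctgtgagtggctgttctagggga

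The second start of each gene carried 1 STAT palindrome, spelled with the same letters in both, TTCTAGGAA, at 188 bases before the Esr1 start and 110 bases before the Prlr start. The first start of each carried 1 CCAAT box, at 49 and 24 bases before the start. Of 32851 promoter windows of the same length, 7.02% held a STAT palindrome and 33.8% held a CCAAT box. None of the 4 windows held the palindrome shared by the glucocorticoid and androgen receptors (ACANNNTGT, in 5.84% of promoters). Nor did any hold the oestrogen receptor palindrome (in 0.0639%) or the TATA box (TATAAA, in 12.4%). The third annotated Prlr start, at chr15:10293401-10293650 and not printed, held none of the 5 motifs, so the matches are not shared by all starts of the gene. Among the other members, the Nr3c2 window held 3 CCAAT boxes, the second Thrb start held 1 TATA box, and the first Thrb start and the Pgrmc1 window held no match. A match of letters is not a bound site, and which start was used in these livers cannot be read from gene counts.

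Levels are given as CPM, the count scaled to a common library size, with library sizes adjusted by TMM. Between genes they were compared per kb of summed exon length. On that scale Pgrmc1 stood at a mean of 722 CPM per kb over the 48 livers, Prlr at 18.8, Nr3c1 at 14.4, Thrb at 7.54, Nr3c2 at 3.36 and Esr1 at 2.49. The summed length takes in every annotated exon of a gene, whether or not it was used in these livers. In CPM alone the mean was 34.0 for Esr1 and 21.8 for Nr3c2, so their order depends on that length. Of the close relatives, the growth hormone receptor Ghr had 72.4 CPM per kb and the thyroid hormone receptor α, Thra, 2.56. The second oestrogen receptor Esr2 had 14 reads over all 48 libraries and at most 3 in any of them, and the progesterone receptor Pgr had 24 reads and at most 3. The membrane oestrogen receptor Gper1 had 34 reads. None of these 3 was tested, and a difference between groups was not detectable at this depth.

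**Figure D1:**
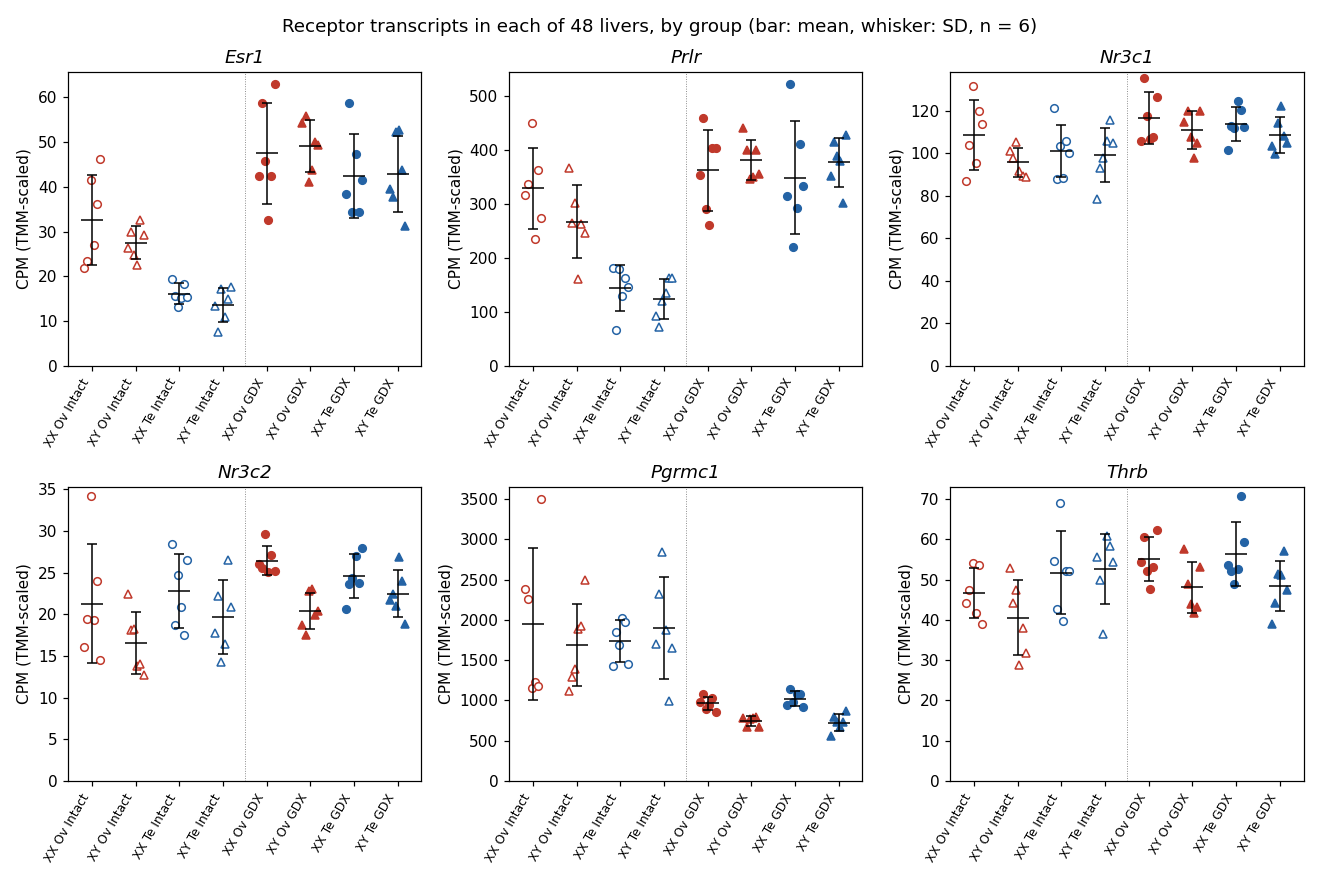
Level of each of the 6 transcripts in each of 48 livers, in CPM on a linear axis from 0, by group (red, Ov; blue, Te; circles, XX; triangles, XY; open, intact; filled, GDX). Black bars are group means and whiskers are SD over 6 mice. The Te Intact mice lie lowest for Esr1, at 7.63 to 19.4 CPM, and the GDX groups lie lowest for Pgrmc1.

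Esr1 transcript was higher in intact livers with ovaries than with testes, and the groups did not overlap. It ran from 21.9 to 46.2 CPM (median 31.5) in XX Ov Intact livers and from 22.5 to 32.5 CPM (median 27.8) in XY Ov Intact livers. In XX Te Intact livers it ran from 13.0 to 19.4 CPM (median 15.5), and in XY Te Intact livers from 7.63 to 17.6 CPM (median 14.1). All 12 livers with ovaries lay above all 12 with testes, a separation shown by 0.597% of the tested genes. The gonadal effect, Ov Intact against Te Intact, was 2.02-fold (log2 fold change 1.02, SE 0.13, adjusted p = 4.86e-08). Every adjusted p-value here is from edgeR (quasi-likelihood F-test), Benjamini-Hochberg corrected for the 15414 genes, and a gene was called at 0.05. In this comparison 25.3% of the tested genes were called, 14.1% higher and 11.3% lower with ovaries, and of the 6 receptors Esr1 and Prlr were higher and Thrb lower. Without the 2 libraries that stood apart the Esr1 difference was 0.88 (adjusted p = 2.78e-07).

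After GDX the Esr1 level was similar in range whichever gonad had been removed. It ran from 32.7 to 63.0 CPM (median 44.2) in XX Ov GDX, from 41.0 to 55.9 CPM (median 49.7) in XY Ov GDX, from 34.4 to 58.8 CPM (median 39.9) in XX Te GDX and from 31.2 to 52.8 CPM (median 41.6) in XY Te GDX livers. The 4 ranges overlapped. The difference by former gonad was 0.18 on the log2 scale (95% interval -0.06 to 0.42, adjusted p = 1), in a comparison where 0.0908% of the genes were called and none of the 6 receptors. In the order of the 8 group means, every neighbouring pair overlapped in range except XY Ov Intact and XX Te Intact.

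Castrated livers had more Esr1 transcript than intact livers with testes. The 12 Te GDX livers (31.2 to 58.8 CPM, median 40.5) all lay above the 12 Te Intact livers (7.63 to 19.4 CPM, median 15.3), a difference of 2.88-fold (log2 fold change 1.52, SE 0.13, adjusted p = 8.18e-13). Groups without overlap were seen for 4.81% of all genes in this comparison, and 63.3% of all genes were called, 33.4% up and 29.9% down, against 3 of the 6 receptors up and Pgrmc1 down. After ovariectomy Esr1 rose 1.61-fold (log2 fold change 0.69, SE 0.12, adjusted p = 6.24e-06), with 6 of 12 Ov GDX livers above all Ov Intact livers, where 69.4% of all genes were called, 36.0% up and 33.4% down, against 5 of the 6 receptors up and Pgrmc1 down. The castration effect exceeded the ovariectomy effect by 0.84 on the log2 scale (95% interval 0.49 to 1.18, adjusted p = 0.00205), a difference called for 5.60% of all genes. By its definition this difference equals the gonadal effect minus the difference by former gonad after GDX, so it restates those values. With an offset for exon length, explained with the Pgrmc1 values, the castration effect was 1.06 (adjusted p = 2.15e-08) and the ovariectomy effect 0.07 (adjusted p = 0.666), so the Esr1 call after ovariectomy ended.

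Prlr was also higher in intact livers with ovaries than with testes, with some overlap. It ran from 235 to 450.0 CPM (median 326) in XX Ov Intact and from 160.5 to 367 CPM (median 264) in XY Ov Intact livers. In XX Te Intact livers it ran from 66.8 to 180.3 CPM (median 154), and in XY Te Intact livers from 72.5 to 163 CPM (median 127). Of the 12 intact livers with ovaries, 11 lay above every intact liver with testes. The gonadal effect was 2.22-fold (log2 fold change 1.15, SE 0.15, adjusted p = 5.94e-08).

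In the GDX groups Prlr lay between 220.2 and 522 CPM, and the ranges of all 4 groups overlapped. Group medians were 378 CPM in XX Ov GDX, 377 CPM in XY Ov GDX, 324 CPM in XX Te GDX and 384 CPM in XY Te GDX livers. The difference by former gonad was 0.04 on the log2 scale (95% interval -0.24 to 0.32, adjusted p = 1). Castration raised Prlr 2.71-fold (log2 fold change 1.44, SE 0.15, adjusted p = 9.77e-11), and all 12 Te GDX livers lay above all 12 Te Intact livers. With the offset for exon length the castration effect was 0.96 (adjusted p = 2.06e-07).

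Ovariectomy moved Prlr by 0.33 on the log2 scale (SE 0.14, adjusted p = 0.0404), with 1 of 12 Ov GDX livers above all Ov Intact livers. This call was not stable. Leaving out any 1 of 12 mice ended it, with adjusted p up to 0.0882: XX Ov GDX mice 2, 5 and 6, XY Ov GDX mice 1, 2 and 5, XX Ov Intact mice 1, 4 and 6, and XY Ov Intact mice 4, 5 and 6. With the offset for exon length the sign turned, to -0.33 (adjusted p = 0.0383). The castration effect on Prlr exceeded the ovariectomy effect by 1.11 on the log2 scale (95% interval 0.71 to 1.51, adjusted p = 0.000315). That difference was 1.28 (adjusted p = 1.66e-05) with the offset.

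**Figure D2:**
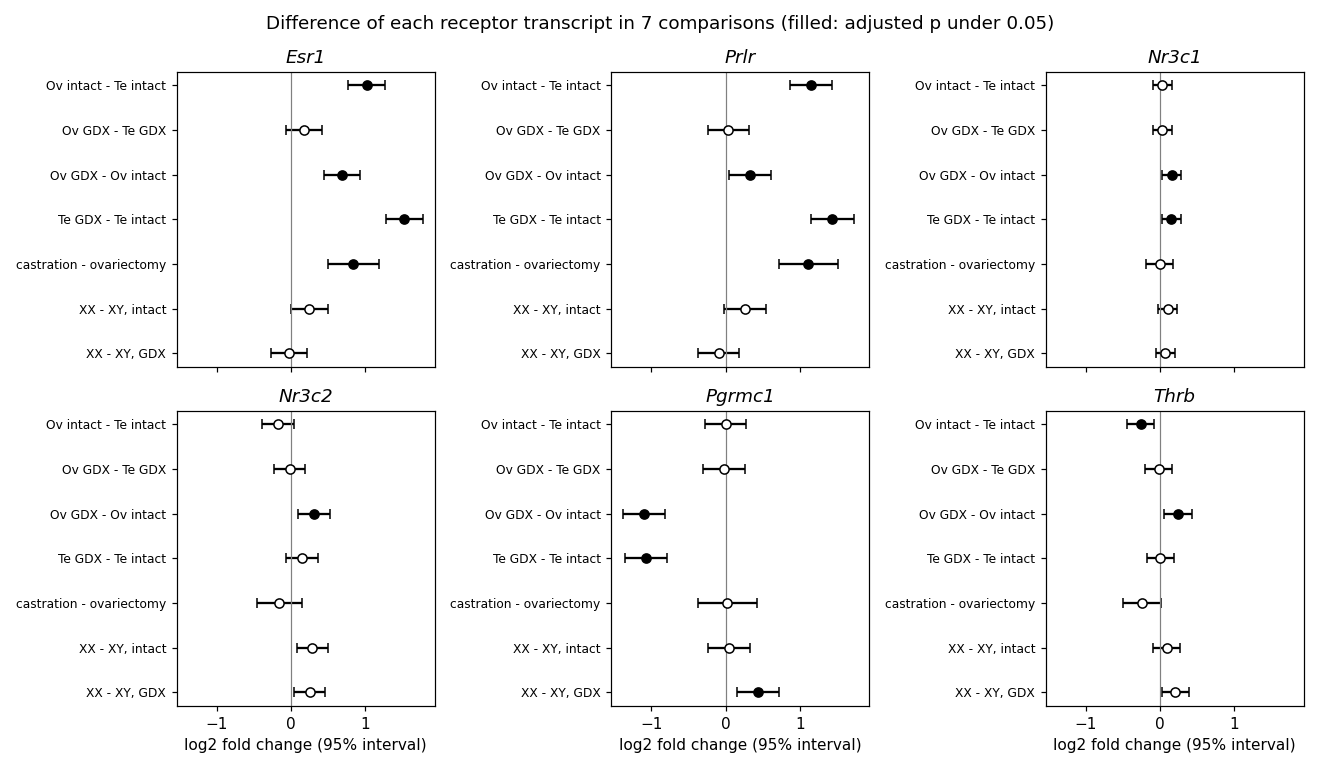
Log2 fold change of each transcript in 7 comparisons, with 95% intervals; filled points passed an adjusted p of 0.05. Esr1 and Prlr lie to the right of 0 for Ov against Te in intact mice (1.02 and 1.15) and near 0 after GDX (0.18 and 0.04), while Pgrmc1 lies to the left of 0 after either gonadectomy.

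Sex chromosomes made no called difference to Esr1 or Prlr. Among intact mice XX exceeded XY by 0.24 for Esr1 (95% interval -0.00 to 0.49, adjusted p = 0.233) and by 0.26 for Prlr (95% interval -0.02 to 0.54, adjusted p = 0.274), in a comparison in which 10.7% of all genes were called. After GDX, with 34.3% of all genes called, the differences were -0.03 (95% interval -0.27 to 0.21) and -0.09 (95% interval -0.38 to 0.19). The gonadal effect differed between XX and XY intact mice by 0.00 for Esr1 (95% interval -0.50 to 0.51) and by 0.08 for Prlr (95% interval -0.48 to 0.64). No gene of the 15414 was called in that last test by edgeR, 989 had an unadjusted p under 0.05, and the intervals are wide.

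**Figure D3:**
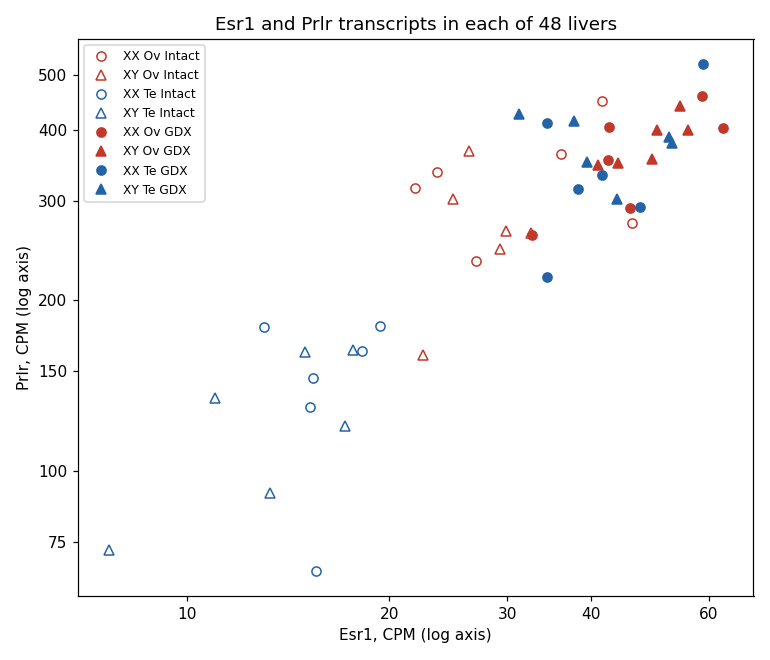
Esr1 against Prlr in each of 48 livers, both in CPM on log axes, with colours and symbols for the 8 groups as in the legend. The Te Intact livers form the lower left corner (Esr1 up to 19.4 CPM, Prlr up to 180.3 CPM) and the GDX livers of all 4 genotypes overlap at the upper right.

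Within groups the 2 transcripts also went together loosely. After group means were removed from the log2 values, Pearson's r was 0.42 over 48 mice (permutation p = 0.0063, 0.0112 after Benjamini-Hochberg adjustment over 15 pairs of receptors) and Spearman's rho was 0.35 (permutation p = 0.0276, adjusted 0.0414). It was 0.40 without the 2 mice farthest out in Esr1, 0.39 among intact and 0.49 among GDX mice. Of 11363 other genes compared over the 48 mice, the pattern most like Esr1 was that of Fmo2, a flavin-containing monooxygenase (r = 0.91), then that of Setbp1 (r = 0.90). Fmo2 was also first for Prlr (r = 0.90), followed by the female-biased cytochrome P450 Cyp2b13 (r = 0.90). These are descriptions over mice that share groups and libraries, and after group means were removed r was 0.44 for Esr1 with Fmo2 and 0.57 for Prlr with Fmo2.

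Of the 13 tested genes of prolactin and growth hormone receptor signalling, 3 were higher and 1 lower in intact livers with ovaries, and their median difference was 0.11 beside 0.04 for all genes. This is near the share of all genes called in the comparison, 25.3%, with 14.1% higher and 11.3% lower. Cish, an inhibitor induced by STAT5, differed by 0.85 (SE 0.32, adjusted p = 0.0439), at 3.15 to 10.7 CPM with ovaries and 0.786 to 18.2 CPM with testes. The phosphatase gene Ptpn6 differed by 0.50 (adjusted p = 0.00596). Ghr, which encodes a related cytokine receptor, was lower with ovaries by a log2 fold change of -0.23 (SE 0.08, adjusted p = 0.0332), opposite to Prlr. After castration, where 63.3% of all genes were called and 33.4% rose, 7 of the 13 rose and none fell (median 0.39 beside 0.07 for all genes), Cish by 1.43 (SE 0.31, adjusted p = 0.000142), and after ovariectomy, where 69.4% were called and 36.0% rose, 6 rose and none fell (median 0.19 beside 0.06). Among all genes with the longest exons the median was 0.26 after castration and 0.38 after ovariectomy, as described with Pgrmc1. The part of exon length in this list was not tested. For Cish the castration effect exceeded the ovariectomy effect by 1.41 (SE 0.44, adjusted p = 0.0443).

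Nr3c1, the glucocorticoid receptor, varied little. Group medians lay between 94.8 CPM in XY Ov Intact and 113 CPM in XX Ov GDX and XX Te GDX livers, single livers between 78.4 and 135 CPM, and each group overlapped with its neighbour in the order of means. The gonadal effect was 0.03 on the log2 scale (95% interval -0.10 to 0.15, adjusted p = 0.794). Ovariectomy and castration moved it by 0.16 (SE 0.07, adjusted p = 0.0318) and 0.15 (SE 0.07, adjusted p = 0.0405), and the length offset turned the sign of both, to -0.18 (adjusted p = 0.0109) and -0.10 (adjusted p = 0.136). The first call also ended without any 1 of 8 mice (XX Ov GDX 2 and 6, XY Ov GDX 2 and 6, XX Ov Intact 1, 2 and 4, XY Ov Intact 5; adjusted p up to 0.0802). The second ended without any 1 of 14 mice (XX Te Intact 2, 4 and 6, XY Te Intact 1, 2, 3 and 6, XX Te GDX 4 and 5, XY Te GDX 1, 3 and 4, XX Ov Intact 6, XY Ov Intact 6; adjusted p up to 0.0997).

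Nr3c2, the mineralocorticoid receptor, was the only 1 of the 6 called between XX and XY over all mice. In intact livers it ran from 14.5 to 34.2 CPM (median 19.4) in XX Ov, from 12.7 to 22.4 CPM (median 16.1) in XY Ov, from 17.5 to 28.5 CPM (median 22.8) in XX Te and from 14.3 to 26.5 CPM (median 19.3) in XY Te. After GDX the ranges were 25.1 to 29.7 CPM (median 25.8) in XX Ov and 17.5 to 23.1 CPM (median 20.1) in XY Ov, then 20.6 to 28.0 CPM (median 24.1) in XX Te and 18.8 to 26.9 CPM (median 22.1) in XY Te. XX livers thus had the higher median within each of the 4 gonadal states, and XX and XY overlapped in all but the Ov GDX groups. The share of all genes without overlap between those Ov GDX groups was not counted, so how common such a separation is cannot be said.

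The chromosomal effect on Nr3c2 was 1.20-fold (log2 fold change 0.27, SE 0.08, adjusted p = 0.00445), with 36.7% of all genes called and 21.9% called higher in XX. Its size was near equal in the 2 cohorts, 0.29 in intact (95% interval 0.07 to 0.50, adjusted p = 0.082) and 0.25 in GDX mice (95% interval 0.04 to 0.46, adjusted p = 0.0667), and the difference between them was -0.04 (95% interval -0.34 to 0.26), in a test that called 2.12% of all genes and none of the 6 receptors. With library totals in place of TMM it was 0.16 (adjusted p = 0.21) and no longer called. The intact difference was called without XX Ov Intact mouse 1 or 6, XY Ov Intact mouse 1 or XY Te Intact mouse 5 (adjusted p 0.028 to 0.0486), and the GDX difference without XY Te GDX mouse 4 or XX Ov Intact mouse 3 (adjusted p up to 0.0454). The gonadal effect on Nr3c2, -0.17 (adjusted p = 0.223), was called only without XX Ov Intact mouse 3 (-0.27, adjusted p = 0.0299). Ovariectomy raised Nr3c2 by 0.31 (SE 0.11, adjusted p = 0.0112), which was 0.05 (adjusted p = 0.593) with the length offset, and castration gave 0.15 (adjusted p = 0.226). Beside these chromosomal differences, 5 of 6 Kupffer cell and macrophage markers were lower in XX (median -1.14 on the log2 scale beside 0.05 for all genes), and so were 5 of 5 tested neutrophil and lymphocyte markers (each of the 5 called). Their part in the Nr3c2 difference was not tested.

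Partners and targets of both corticosteroid receptors gave 2 higher and 3 lower of 19 tested genes in the gonadal effect (median 0.08 beside 0.04 for all genes). That is near the 25.3% of all genes called in it, 14.1% higher and 11.3% lower. Serpina6, which encodes the plasma carrier of corticosteroids, was at 386 to 789 CPM in Ov Intact and 171 to 513 CPM in Te Intact livers, a difference of 0.72 (SE 0.15, adjusted p = 0.000328). H6pd, which supplies cofactor for the reactivation of glucocorticoids in the endoplasmic reticulum, was lower with ovaries by a log2 fold change of -0.56 (SE 0.11, adjusted p = 0.000212), and the glucocorticoid-responsive factor gene Klf9 by -0.49 (SE 0.10, adjusted p = 0.000173). Castration raised Serpina6 (0.82, SE 0.15, adjusted p = 7.58e-06), and as for Esr1 and Prlr the castration effect exceeded the ovariectomy effect (difference 0.83, SE 0.21, adjusted p = 0.0109). In the chromosomal effect 4 were higher and 1 lower in XX (median 0.13 beside 0.05, with 21.9% of all genes higher), among them the gluconeogenic enzyme gene Pck1 (0.45, SE 0.12, adjusted p = 0.00332). The list split evenly after ovariectomy, with 6 up and 6 down, where 69.4% of all genes were called. So it did after castration, with 4 up and 4 down, where 63.3% were called.

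Thrb, the main thyroid hormone receptor of hepatocytes, was lower in intact livers with ovaries. Single values ran from 28.8 to 54.2 CPM (median 44.2) in Ov Intact and from 36.5 to 69.1 CPM (median 53.3) in Te Intact livers, with 6 of 12 livers with testes above all livers with ovaries. The log2 fold change was -0.26 (SE 0.09, adjusted p = 0.0345). The call ended with library totals (adjusted p = 0.102), with no filter on low counts (adjusted p = 0.0543), with 1 surrogate variable (adjusted p = 0.0756), with the intact groups fitted alone (adjusted p = 0.134), against a fold of 1.5 (adjusted p = 1), without the 2 libraries that stood apart (adjusted p = 0.0501) and without any 1 of 9 mice (XX Te Intact 1 and 3, XY Te Intact 4 and 5, XX Ov Intact 1 and 4, XY Ov Intact 4, 5 and 6; adjusted p up to 0.0878). In the same contrast 4 of 6 Kupffer cell and macrophage markers were higher with ovaries (summed level 266 to 999.5 CPM against 215 to 679.9 CPM with testes), beside 14.1% of all genes, and the part of these markers in the Thrb, Esr1 and Prlr differences was not tested.

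After GDX Thrb ran from 41.7 to 62.3 CPM in Ov and from 39.1 to 70.9 CPM in Te livers, and the difference by former gonad was -0.02 (95% interval -0.20 to 0.16). Ovariectomy moved it by 0.24 (SE 0.09, adjusted p = 0.0204), which turned to -0.03 (adjusted p = 0.735) with the length offset and ended without XY Ov Intact mouse 4 (0.20, adjusted p = 0.0516). Castration gave 0.00 (95% interval -0.18 to 0.18, adjusted p = 0.998), but -0.22 (adjusted p = 0.0204) with the offset. XX exceeded XY by 0.15 (95% interval 0.02 to 0.28, adjusted p = 0.0747), which was called without XY Ov GDX mouse 1, XY Ov Intact mouse 1 or XX Te Intact mouse 4 (adjusted p up to 0.0496).

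Of 11 tested thyroid hormone handling and target genes, 1 was higher and 1 lower in the gonadal effect, where 25.3% of all genes were called (median -0.05 beside 0.04 for all genes). In XX against XY livers after GDX, 7 of the 11 were higher and 1 lower (median 0.40 beside 0.08), beside 19.5% of all genes higher. With library totals in place of TMM the median of all genes in this contrast was -0.10. How the listed genes depend on scaling or on the share of reads outside genes was not tested. The malic enzyme gene Me1, a classical thyroid hormone target, was at 108 to 224 CPM in XX GDX and 52.9 to 123 CPM in XY GDX livers, a difference of 0.73 (SE 0.13, adjusted p = 1.46e-05). Dio1, the hepatic deiodinase that converts thyroxine to its active form, differed by 0.75 (SE 0.14, adjusted p = 3.62e-05) in that contrast and by -1.29 (SE 0.14, adjusted p = 7.89e-10) after castration. Thrb itself passed the threshold in neither contrast. Castration lowered 4 of the 11 and raised none (median -0.15 beside 0.07, with 29.9% of all genes lowered), and ovariectomy raised 4 and lowered 4 (with 36.0% of all genes raised and 33.4% lowered).

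Pgrmc1 fell after both gonadectomies. In intact livers it ran from 1159.8 to 3499 CPM (median 1744) in XX Ov, from 1122 to 2489 CPM (median 1639) in XY Ov, from 1428 to 2020.1 CPM (median 1774) in XX Te and from 988 to 2837 CPM (median 1786) in XY Te. The 4 intact ranges overlapped, and the gonadal effect was -0.00 (95% interval -0.28 to 0.28, adjusted p = 0.997). With 1 surrogate variable in the fit it was -0.29 and called (adjusted p = 0.000143), and with the length offset -0.19 (adjusted p = 0.186). After GDX it ran from 860.1 to 1079 CPM (median 963) in XX Ov, from 669 to 799.9 CPM (median 772) in XY Ov, from 922 to 1139 CPM (median 1024) in XX Te and from 560.5 to 863 CPM (median 731) in XY Te. All 12 Ov GDX livers lay below all 12 Ov Intact livers, as groups without overlap did for 10.8% of all genes, and 9 of 12 Te GDX livers lay below all Te Intact livers. The log2 fold change was -1.10 after ovariectomy (SE 0.15, adjusted p = 1.6e-08) and -1.08 after castration (SE 0.15, adjusted p = 5.28e-08), and the 2 differed by 0.02 (95% interval -0.38 to 0.42).

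The make-up of the libraries moved with GDX, and by gene length. Exon lengths, taken from the NCBIM37 annotation, were at hand for 89.8% of the tested genes. After ovariectomy the median log2 fold change was -0.49 in the first of 4 equal groups of genes by exon length (up to 2.151 kb), -0.03 and 0.15 in the middle groups and 0.38 in the group with the longest exons. After castration the 4 medians were -0.33, -0.01, 0.12 and 0.26. The gonadal effect had a smaller trend the other way, from 0.19 in the shortest to -0.07 in the longest group. Pgrmc1, at 1.857 kb, is in the shortest group, and the other 5 receptors, at 6.474 to 15.494 kb, are in the longest. An offset for exon length, fitted in each mouse over all genes and added after the data had been seen, left Pgrmc1 at -0.74 after ovariectomy (adjusted p = 3.48e-07) and -0.91 after castration (adjusted p = 1.09e-08). The share of reads outside genes moved with GDX too, and as a covariate it turned the Pgrmc1 differences to 0.79 (adjusted p = 0.315) and 0.83 (adjusted p = 0.178). In the same fit the castration calls of Esr1 (1.10, adjusted p = 0.0926) and Prlr (0.62, adjusted p = 0.408) ended, and so did the ovariectomy call of Esr1 (0.27, adjusted p = 0.756), while their castration minus ovariectomy differences stayed at 0.83 (adjusted p = 0.00189) and 1.08 (adjusted p = 0.000285). That share separated the intact from the GDX libraries completely, so the 2 cannot be told apart in such a fit. The castration minus ovariectomy difference had medians from 0.22 in the shortest to -0.08 in the longest group of genes. It was 0.84 for Esr1 and 1.11 for Prlr without the covariate or offset.

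**Figure D4:**
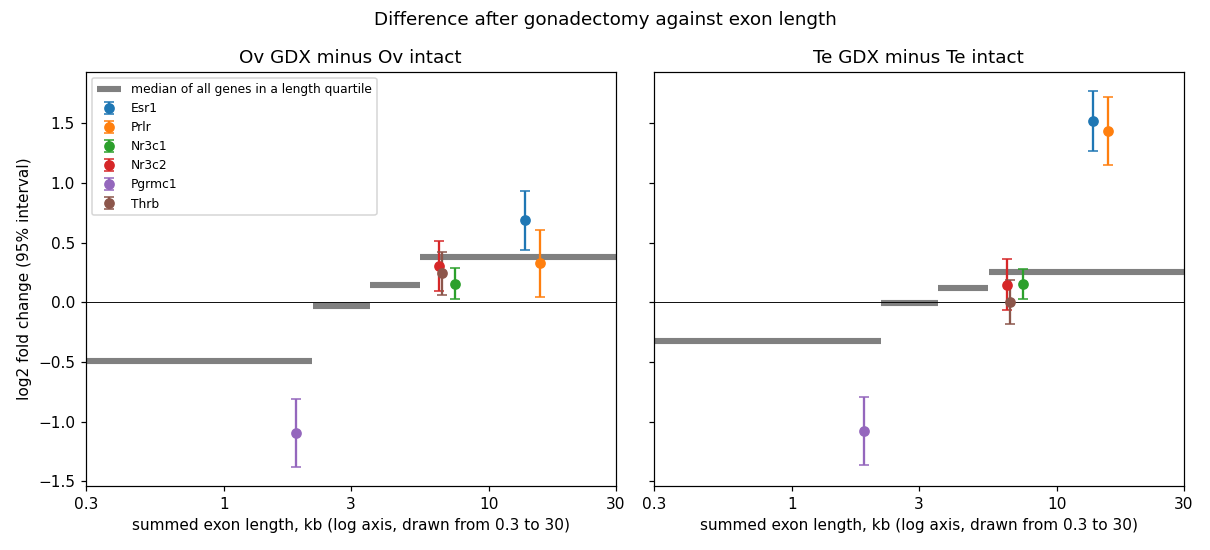
Log2 fold change after ovariectomy (left) and castration (right) against summed exon length in kb on a log axis. Coloured points are the 6 receptors with 95% intervals and grey bars the medians of all genes in each of 4 groups by exon length, from -0.49 and -0.33 for the shortest to 0.38 and 0.26 for the longest. Esr1 and Prlr stand well above the grey bar after castration, and Pgrmc1 below it in both panels.

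Pgrmc1 is X-linked, and it was higher in XX than in XY livers after GDX. The 12 XX GDX livers ran from 860.1 to 1139 CPM (median 979.8) and the 12 XY GDX livers from 560.5 to 863 CPM (median 749), with 11 of 12 XX livers above every XY liver. The difference was 1.35-fold (log2 fold change 0.43, SE 0.14, adjusted p = 0.0161), and Pgrmc1 was the only 1 of the 6 called in this contrast, where 19.5% of all genes were called higher in XX. Among intact mice it was 0.04 (95% interval -0.24 to 0.32, adjusted p = 0.893), and the difference between the cohorts was 0.39 (95% interval -0.01 to 0.79, adjusted p = 0.39) and not called. Over all mice XX exceeded XY by 0.24 (adjusted p = 0.0615), which was called without XX Ov Intact mouse 3, 4 or 5, XY Te Intact mouse 2 or XY Te GDX mouse 6 (adjusted p up to 0.0499). Of 432 tested X-linked genes 85 were called higher in XX after GDX, or 19.7%, while Kdm6a, Kdm5c, Eif2s3x and Ddx3x, which are known to escape X inactivation, were higher in XX in both cohorts.

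Several measures moved with that Pgrmc1 difference. Reads outside genes were 8.52% to 10.1% of the XX GDX and 9.98% to 11.3% of the XY GDX libraries, and with this share as a covariate the difference was 0.04 (adjusted p = 0.84). With library totals it was 0.26 (adjusted p = 0.082). It also ended without XY Te Intact mouse 3 (0.35, adjusted p = 0.0619) or XY Ov Intact mouse 6 (0.36, adjusted p = 0.0559), which are not GDX mice and enter through the shared scaling and spread. With the 24 GDX mice fitted alone it was 0.38 (adjusted p = 6.53e-06). In the same contrast, where 34.3% of all genes were called in either direction, 5 of 6 Kupffer cell and macrophage markers were lower in XX. Their summed level was 132 to 326 CPM against 280.5 to 779 CPM in XY, and the part of these cells in the Pgrmc1 difference was not tested.

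**Figure D5:**
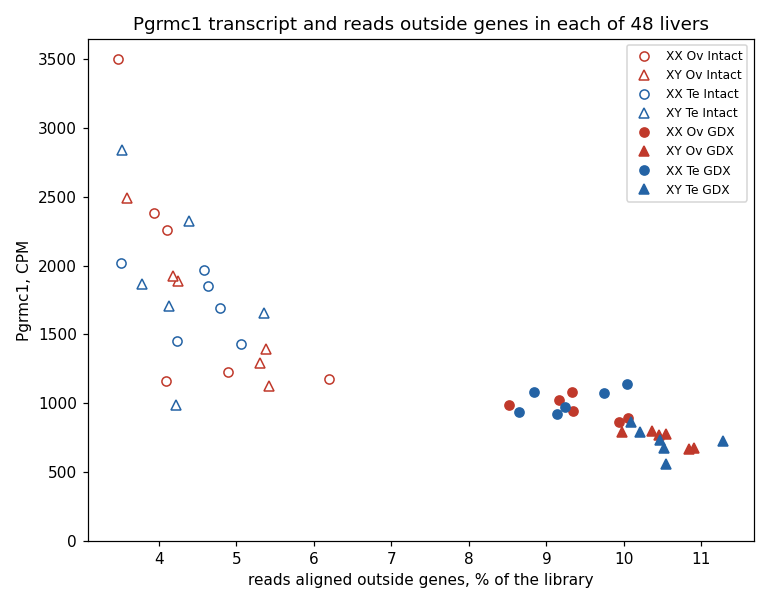
Pgrmc1 in CPM (linear axis from 0) against the share of reads aligned outside genes, in percent of the library, in each of 48 livers, with colours and symbols for the 8 groups as in the legend. Intact libraries lie at 3.47% to 6.20% and GDX libraries at 8.52% to 11.3%, and within the GDX cohort the XY livers lie at higher shares and lower Pgrmc1 than most XX livers.

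The genes most like Pgrmc1 over the 48 mice were Esd (r = 0.98), an esterase gene, and Skp1a (r = 0.98), a subunit of ubiquitin ligases. Esd, at 1.618 kb of summed exons, is in the shortest group of genes as Pgrmc1 is. Skp1a, at 2.211 kb, is in the second, where the median after ovariectomy was -0.03. Both fell after ovariectomy (log2 fold change -1.13 and -1.53) as Pgrmc1 did. The most similar genes of the other receptors were Tjp1 and Enpp1 for Nr3c1 (r = 0.81 each), Rab22a and Atl3 for Nr3c2 (r = 0.88 and 0.87) and Exph5 and Xpo7 for Thrb (r = 0.88 and 0.86), all of 6.698 to 15.121 kb. Of the genes most like Esr1 and Prlr, Fmo2 has 5.545 kb, Setbp1 9.953 kb and Cyp2b13 1.876 kb. Likeness thus did not always go with exon length, as Cyp2b13 is short and Prlr has 15.494 kb. Nr3c2 and Pgrmc1 went in opposite directions within groups (r = -0.73 over 48 mice with group means removed, permutation p adjusted over 15 pairs 0.00015, rho = -0.62, r = -0.68 without 2 mice). This opposition was -0.82 among intact and -0.10 among GDX mice, so it did not hold within the GDX cohort.

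Close relatives of the 6 receptors split in the gonadal effect, with 2 higher and 3 lower of 12 tested (median -0.13 beside 0.04 for all genes). Of all genes 14.1% were higher and 11.3% lower in it. Paqr7, a membrane progestin receptor, was lower in Ov Intact (25.6 to 57.2 CPM) than in Te Intact livers (40.9 to 85.3 CPM), by a log2 fold change of -0.70 (SE 0.12, adjusted p = 4.07e-05). For Paqr7 the castration effect was below the ovariectomy effect (-0.89, SE 0.17, adjusted p = 0.000713), the opposite order to Esr1 and Prlr. In the chromosomal effect after GDX 7 of the 12 were higher in XX and none lower (median 0.35 beside 0.08), beside 19.5% of all genes higher. They included Pgrmc2, the paralogue of Pgrmc1, at 73.3 to 102 CPM in XX GDX and 49.9 to 78.2 CPM in XY GDX livers (0.49, SE 0.09, adjusted p = 5.43e-05). Pgrmc2 also differed among intact mice (0.43, SE 0.09, adjusted p = 0.00137), where Pgrmc1 did not pass. For these relatives the dependence on scaling or on the share of reads outside genes was not tested. Thra, the second thyroid hormone receptor gene, was called in none of the 10 comparisons.

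Coregulators of nuclear receptors gave 4 lower and none higher of 14 tested in the gonadal effect (median -0.25 beside 0.04 for all genes). Of all genes 25.3% were called in it, 11.3% lower with ovaries. Nr0b2, the corepressor SHP, was at 1.30 to 7.03 CPM in Ov Intact and 4.46 to 15.1 CPM in Te Intact livers (log2 fold change -1.19, SE 0.25, adjusted p = 0.000505). After ovariectomy 12 of the 14 rose and 1 fell (median 0.47 beside 0.06, with 36.0% of all genes up), and after castration 6 rose and 1 fell (median 0.20 beside 0.07, with 33.4% up). Among all genes in the longest of the 4 groups by exon length, the median was -0.07 in the gonadal effect, 0.38 after ovariectomy and 0.26 after castration. The counts of the gene lists were not recomputed with the length offset, and the part of exon length in the coregulator values was not tested. The gonadal, ovariectomy and castration effects share mice with each other (Ov Intact, Te Intact), so their values stand side by side and are not independent. For every gene the castration minus ovariectomy difference equals the gonadal effect minus the difference by former gonad after GDX.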

How the data were processed

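Liver RNA of 48 FCG mice, 6 in each of 8 groups and each a separate animal, was sequenced after poly(A) selection. The authors aligned reads to GRCm39 with STAR 2.7.10a and deposited raw counts per gene, with no normalization; the annotation release and strand setting are not given in the sources used here. The 4 summary lines of the count table were left out of library sizes. Genes passing filterByExpr (minimum count 10, minimum total 15) were fitted by group with edgeR 4.0.16 in R 4.3.3 (TMM, robust quasi-likelihood), and 10 contrasts were tested with Benjamini-Hochberg adjustment at 0.05. Intervals are 95% (estimate and its SE). Symbols matched 56.0% of the identifiers, and gene lengths came from another build. The members and gene lists were chosen with earlier results of these data known. Named genes are the members, at most the 4 of each list with the lowest adjusted p per comparison, Esr2, Pgr, Thra and Ghr, the label and marker checks, and the 2 genes most like each member. Alternatives used DESeq2 1.42.0 (the authors' own test was DESeq2 1.36.0), limma 3.58.1 and sva 3.50.0. Tested on simulated data for the gonadal contrast, with 15011 genes, the fit recovered 183 of 200 changed genes with 4 false calls. Those genes were changed in the Te Intact mice alone, and all other means were equal between groups. No shift by cohort or exon length was simulated, so these error counts do not extend to the contrasts of GDX with intact mice. Count totals limit the precision of low genes, and a count of 0 allows up to 3 reads, or 0.131 to 0.254 CPM. Some genes of the lists are counted but not reported here by name.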

Additional observations from a re-analysis of the deposited data

Results flagged for a closer look

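Esr1 and Prlr stood out because the effect of removing the gonads differed between mice with testes and mice with ovaries, by a test of that difference in edgeR with Benjamini-Hochberg adjustment. For Esr1 the castration effect exceeded the ovariectomy effect by 0.84 on the log2 scale (adjusted p = 0.00205), and for Prlr by 1.11 (adjusted p = 0.000315). This difference is by definition the gonadal effect in intact mice minus the difference by former gonad after GDX. It is therefore not a separate result from those comparisons. In 48 combinations of receptor and group, no single mouse lay apart from the other 5 by Dixon's 95% criterion, which chance alone exceeds in about 1 in 20 groups.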

How the results depend on the processing

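No paired analysis was possible because each mouse has its own identifier and the groups share no replicate numbers. The gonadal differences of Esr1 and Prlr and their castration minus ovariectomy differences kept their direction under every alternative, and only the test against a fold of 1.5 took the latter to 0 calls. Of the values of single members in the alternatives other than leaving out a mouse, 702 in all, 33 lost a call, 21 gained one and 64 turned sign, 12 of these for a difference that had been called and 52 for one that had not. The number of the 6 receptors called moved as follows. Over all mice, XX against XY gave 0 with library totals, 3 with a surrogate variable, 3 with the share of reads outside genes as covariate, 0 against a fold of 1.5 and 4 with the length offset. In intact mice it gave 1 with the surrogate variable, the outside share, the length offset or without the 2 mice that stood apart. After GDX it gave 0 with library totals, no filter or a fold of 1.5, 3 with the surrogate variable, 2 with the outside share, 2 with the GDX groups alone and 4 with the length offset. Ovariectomy gave 2 with the surrogate variable, 0 with the outside share, 1 against a fold of 1.5 and 3 with the length offset, and castration gave 1 with the outside share. Among called differences or alternatives, signs turned after ovariectomy for Nr3c2 with the surrogate variable (-0.011), with the outside share for Prlr (-0.46), Nr3c1 (-0.33), Nr3c2 (-0.60), Pgrmc1 (0.79) and Thrb (-0.67), and with the length offset for Prlr (-0.33), Nr3c1 (-0.18) and Thrb (-0.034). After castration they turned with the outside share for Nr3c1 (-0.35), Pgrmc1 (0.83) and Thrb (-0.94), and with the length offset for Nr3c1 (-0.10) and Thrb (-0.22). The castration minus ovariectomy difference of Pgrmc1 was -0.30 with the surrogate variable. The cause was not tested. Leaving out each mouse gave 2 to 4 receptors called for the gonadal effect, 1 to 2 for chromosomes over all mice, 0 to 1 in intact and 0 to 2 in GDX mice, 4 to 6 for ovariectomy, 3 to 4 for castration and 2 for their difference. Of 2880 values of single members without 1 mouse, 46 lost a call, 15 gained one and 113 turned sign, none of these for a called difference. The length offset and the fit without 2 mice were chosen after seeing the data.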
